A study of Mus musculus with 13 samples.

Results

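Germ cells keep a set of RNA-binding proteins and a small-RNA pathway that most other cells do not use, and 10 mouse genes of that kind are described here: Dazl, Ddx4, Mael, Asz1, Piwil2, Tdrd1, Tdrd9, Mov10l1, Rnf17 and Tex19.1. They were found in the table of read counts by matching its Ensembl identifiers to symbols in the GENCODE vM21 annotation of GRCm38, and all 10 were present among the 38377 identifiers of the table. RNA had been sequenced in bulk from 13 libraries of female mouse cells in 6 groups. Extraembryonic endoderm stem cells (XEN cells), a line type that models the primitive endoderm of the early embryo, carried a deletion of Xist on the paternal X chromosome and received Aza (2 libraries), carried the deletion without Aza (3 libraries), were wild type with Aza (2 libraries), or were wild type without it (2 libraries). Epiblast stem cells (EpiSC), which model the postimplantation epiblast, were heterozygous for an Xist deletion (2 libraries) or wild type (2 libraries), and none of them received Aza. Aza is 5-aza-2'-deoxycytidine (decitabine), given at 20 uM, and no source used here gives the length of treatment. XEN cells grew in DMEM with serum, and EpiSC on matrigel with FGF2 and Activin. The deleted groups are called dXist and the wild-type groups WT below. The labels do not say whether the libraries of a group came from separate clones or cultures, so every p-value measures only the spread between these libraries.

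PIWI proteins such as Piwil2 bind piRNAs, small RNAs that guide them to transposon transcripts in germ cells and, in the fetal testis, help bring DNA methylation to transposons. Mov10l1 is an RNA helicase that passes precursor transcripts into piRNA production, Asz1 sits on the mitochondrial surface where piRNAs are made, and Tdrd1, Tdrd9, Rnf17 and Mael act with PIWI proteins in the germ granules around the nucleus. Dazl binds messenger RNAs and promotes their translation, Ddx4 is the germ granule helicase long used as a germ cell marker, and Tex19.1 holds back retrotransposons in germ cells and placenta. Several of these genes carry DNA methylation at CpG-rich promoters in somatic cells, and Aza is incorporated into DNA, where it traps the maintenance methyltransferase Dnmt1 and so lowers methylation as cells divide. No methylation was measured in these libraries.

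Library totals ran from 5848454 to 35247432 counts. A floor of 3 counts in 1 library was 0.0840 to 0.495 CPM (read counts relative to the TMM-scaled library size), highest in the treated WT XEN libraries, which were the shallowest. Xist was at 13.3 and 233 CPM in treated dXist XEN, 1.21 to 5.02 CPM in dXist XEN, 1614 and 1185 CPM in treated WT XEN, 1560 and 1701 CPM in WT XEN, 0.448 and 0.261 CPM in dXist EpiSC, and 835 and 197 CPM in WT EpiSC. Both treated dXist XEN libraries thus held more Xist RNA than the untreated dXist XEN ones, the second by far the most, and the cause was not tested. Fold changes without the second treated dXist XEN library are given for Dazl, Tex19.1, Rnf17 and Mov10l1. It also held most of the treated dXist counts of Piwil2, Ddx4 and Asz1, for which only ranges over left-out libraries are given. The median chi-square per gene between replicates, which also grows with depth, was highest for the 2 treated dXist XEN libraries (47.2 over 15358 genes). By the mean per gene the WT EpiSC pair (524) was above them (510). The third dXist XEN library stood apart from the other 2 (medians 32.1 and 32.7, against 7.26 between those 2). The median was lowest for the treated WT XEN pair (0.856), which was also the shallowest. Mitochondrial ribosomal RNA and Rn7sk together took over 10% of counts in 4 libraries (both treated WT XEN libraries, the second dXist EpiSC and the second WT EpiSC library) and under 0.3% in the other 9. In WT XEN, treatment and this difference in library type therefore cannot be told apart, whereas all dXist XEN libraries, treated or not, were of the low type.

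RefSeq promoter windows on GRCm38.p6 were found for 8 of the 10 genes, and not for Piwil2 and Rnf17. In the 250 bases before the gene start, Ddx4 had 31 CpG dinucleotides, Dazl 20, Mov10l1 19, Mael 18, Asz1 and Tex19.1 15 each, and Tdrd9 8. Tdrd1 has 3 annotated starts, with 11, 22 and 3. Over all 32841 windows the median was 6 and the quartiles were 2 and 16. The palindromic motif CACGTG was present in 5 of the 8 genes (Ddx4, Mael, Tdrd1, Tdrd9 and Mov10l1) and in 6.02% of all windows. The motif TCCCGC, or GCGGGA on the other strand, was present in 3 of the 8 (Ddx4, Mael and Tex19.1) and in 16.9% of all windows, and the 2 motifs overlapped in none of the member windows. Such matches describe letters only. Windows are printed below 5' to 3' on the strand of the gene, with CpG in capitals, for Dazl and Tex19.1, which had the most counts in treated cells, for Asz1, whose untreated libraries disagreed, for Tdrd9, which had the fewest CpG among genes with a single window, and for Mael, which stayed at or near 0 counts. They lie at chr17:50293621-50293870 (Dazl, minus strand), chr11:121145893-121146142 (Tex19.1, plus strand), chr6:18109062-18109311 (Asz1, minus strand), chr12:111971309-111971558 (Tdrd9, plus strand) and chr1:166238745-166238994 (Mael, minus strand).
Dazl: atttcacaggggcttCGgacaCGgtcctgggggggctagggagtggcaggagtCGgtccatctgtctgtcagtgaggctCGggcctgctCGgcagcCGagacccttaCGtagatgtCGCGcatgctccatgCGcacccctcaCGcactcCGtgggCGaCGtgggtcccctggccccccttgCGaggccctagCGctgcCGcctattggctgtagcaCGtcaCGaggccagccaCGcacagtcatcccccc
Tex19.1: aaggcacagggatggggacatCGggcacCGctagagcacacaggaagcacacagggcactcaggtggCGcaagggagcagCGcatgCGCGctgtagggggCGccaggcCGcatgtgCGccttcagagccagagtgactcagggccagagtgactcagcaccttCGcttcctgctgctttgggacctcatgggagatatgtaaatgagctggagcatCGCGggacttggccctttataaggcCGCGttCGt
Asz1: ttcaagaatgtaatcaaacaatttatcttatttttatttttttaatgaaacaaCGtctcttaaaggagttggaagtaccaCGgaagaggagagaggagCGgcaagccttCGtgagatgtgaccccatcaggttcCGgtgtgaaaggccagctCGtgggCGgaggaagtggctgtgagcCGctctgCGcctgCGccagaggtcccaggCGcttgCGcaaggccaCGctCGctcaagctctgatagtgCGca
Tdrd9: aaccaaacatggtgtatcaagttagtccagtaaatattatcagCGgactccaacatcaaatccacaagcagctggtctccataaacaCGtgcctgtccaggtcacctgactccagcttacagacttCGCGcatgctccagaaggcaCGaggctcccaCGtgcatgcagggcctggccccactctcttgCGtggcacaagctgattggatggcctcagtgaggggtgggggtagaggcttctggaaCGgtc
Mael: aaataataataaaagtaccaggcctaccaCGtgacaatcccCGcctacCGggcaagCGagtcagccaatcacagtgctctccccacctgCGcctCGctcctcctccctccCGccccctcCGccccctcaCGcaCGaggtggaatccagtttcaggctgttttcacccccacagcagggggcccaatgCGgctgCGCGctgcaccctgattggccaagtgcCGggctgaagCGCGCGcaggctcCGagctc

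**Figure D1:**
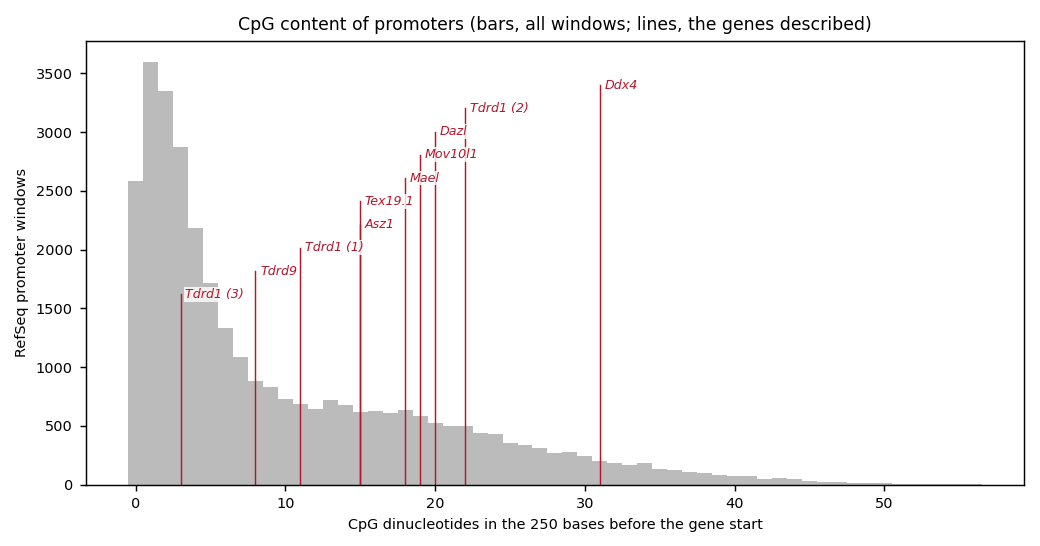
CpG dinucleotides in the 250 bases before the gene start (x axis) and the number of RefSeq promoter windows with each count (y axis, grey bars, 32841 windows). Red lines mark the 10 windows of 8 genes, from 3 CpG in the third Tdrd1 window to 31 in Ddx4, and line heights only separate the labels.

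Without Aza the 10 genes had low counts. Their summed level was 3.16 to 6.63 CPM in dXist XEN, 0.615 and 1.18 CPM in WT XEN, 1.31 and 1.51 CPM in dXist EpiSC and 0.781 and 0.972 CPM in WT EpiSC. In the treated cells it was 7.55 and 30.6 CPM in dXist XEN and 12.4 and 13.4 CPM in WT XEN, above every untreated library. Levels above 1 CPM in untreated XEN cells were seen for Piwil2, at 2.73, 5.31 and 1.28 CPM in the 3 dXist libraries, for Asz1 in the third of them (1.67 CPM) and for Ddx4 in the second (1.25 CPM). These levels are not corrected for length. Per kilobase of exons, Tex19.1 (2.29 ± 2.14 CPM per kb, SD, n = 2), Dazl (1.56 ± 1.68), Piwil2 (0.555 ± 0.546) and Rnf17 (0.442 ± 0.169) had the highest mean levels in treated dXist XEN, and the SDs of the first 3 were close to their means.

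**Figure D2:**
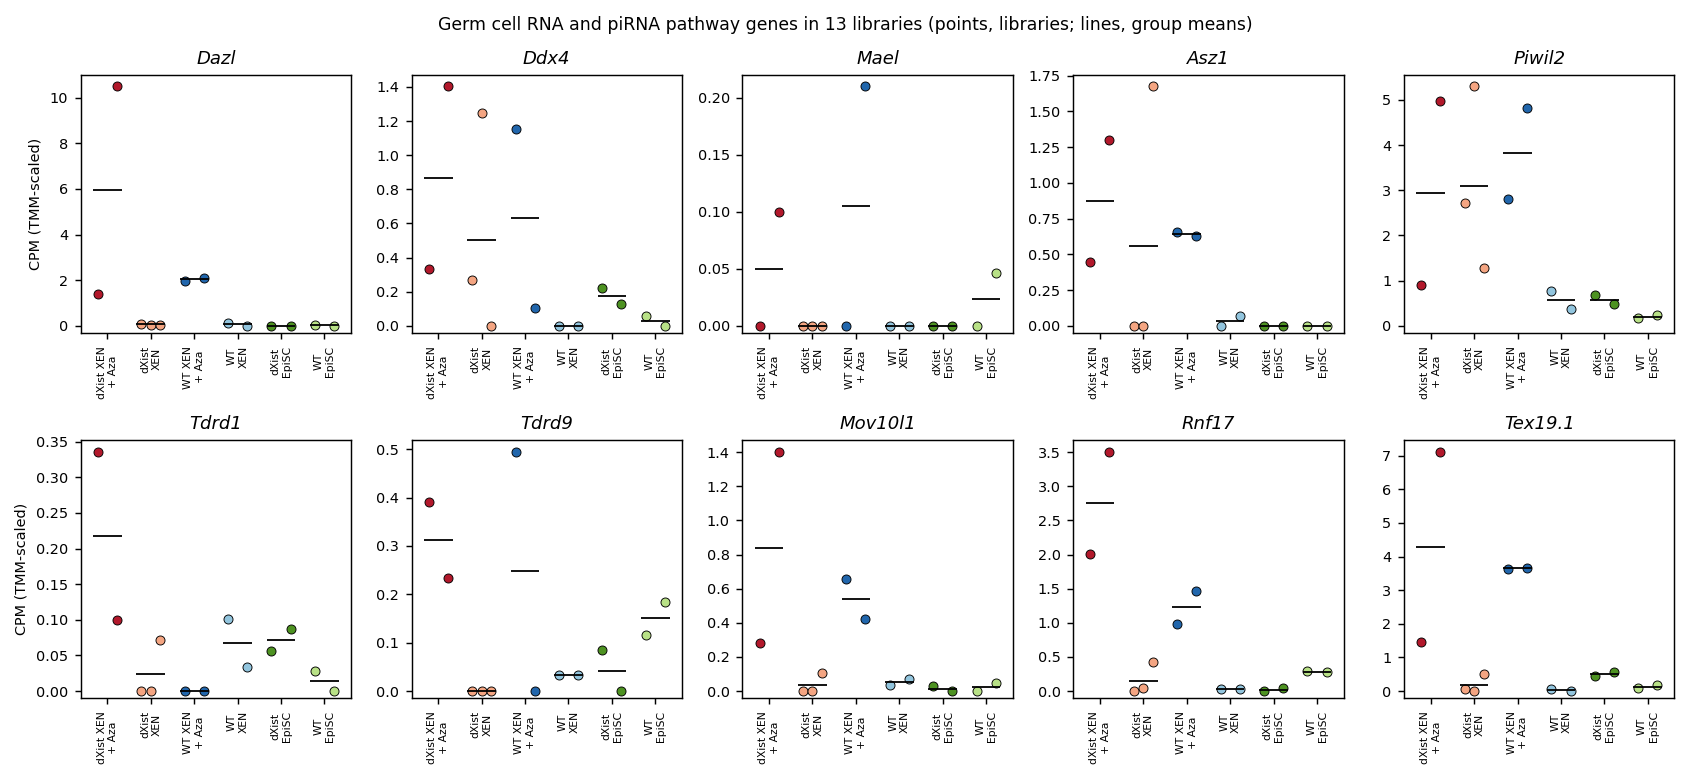
TMM-scaled CPM (y axis, linear, own scale in each panel) of the 10 genes in 6 groups of libraries (x axis). Points are libraries and lines are group means. Dazl, Tex19.1, Rnf17 and Mov10l1 lie higher in all 4 treated XEN libraries than in all 5 untreated ones, and the second treated dXist library is the highest for Dazl, at 10.5 CPM.

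Aza in dXist XEN cells was compared over 2 treated and 3 untreated libraries. Dazl, Tex19.1, Rnf17, Mov10l1, Tdrd9 and Tdrd1 had more RNA in both treated libraries than in any untreated one, whereas Ddx4, Asz1, Piwil2 and Mael overlapped. That is 6 of 10 genes without overlap in this direction, where 16.2% of all genes with a count were so (20.3% of tested genes). Of the 8 genes with enough counts to be tested, 0 were called at an adjusted p under 0.05 by edgeR's quasi-likelihood test, where 0.0707% of the 18393 tested genes were called higher. At an unadjusted p under 0.05, 5 of the 8 were higher, against 14.4% of tested genes. DESeq2 called 4 of the 7 it tested (Dazl, Tex19.1, Rnf17 and Mov10l1), against 8.24% of its genes. The median log2 fold change of the 8 was 4.24, against -0.02 over all tested genes. Of these genes only Piwil2 had enough counts to be tested through untreated libraries alone. Dazl, Mov10l1 and Tdrd9 were low in every untreated library. Tex19.1, Rnf17, Asz1 and Ddx4 had enough counts in a single untreated library, so they too passed the filter only through treated ones. A positive median is thus partly built in, as are high counts of higher genes among those tested, and both are only descriptions. The same filter was used for every gene list below.

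Dazl (ENSMUSG00000010592, chr17:50279395-50293636, minus strand), the translational activator, was at 1.40 and 10.5 CPM in treated dXist XEN (25 and 314 counts), against 0.0998, 0.0390 and 0.0356 CPM in dXist XEN (3, 1 and 1 counts). Both treated libraries lay far above all untreated ones, and they differed from each other several times over. The log2 fold change was 6.54 (SE 1.22, edgeR adjusted p = 0.0614). Without the second treated library, which left a single treated dXist library, it was 4.41. Across 11 alternatives the edgeR or DESeq2 adjusted p ran from 2.07e-07 to 0.191, all with the same direction. The order of mean levels was treated dXist XEN (5.94 ± 6.43 CPM, SD, n = 2), treated WT XEN (2.04 ± 0.0855, n = 2), WT XEN (0.0674 ± 0.0953, n = 2), dXist XEN (0.0582 ± 0.0361, n = 3), WT EpiSC (0.0145 ± 0.0204, n = 2) and dXist EpiSC (0 counts in both). The 2 treated groups overlapped, as did the 2 untreated XEN groups, and every treated XEN library lay above every untreated one.

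Tex19.1 (ENSMUSG00000039329, chr11:121146143-121148319, plus strand), the retrotransposon suppressor, was at 1.45 and 7.11 CPM in treated dXist XEN (26 and 213 counts), against 0.0665, 0 and 0.499 CPM in dXist XEN (2, 0 and 14 counts). The third untreated library was the highest of its group and still below both treated ones. The log2 fold change was 4.46 (SE 1.32, edgeR adjusted p = 0.0922), with adjusted p from 0.000225 to 0.234 across 11 alternatives. It was 6.74 without the third untreated library (adjusted p = 0.0499) and 2.86 without the second treated one (adjusted p = 0.197). The 2 treated groups were highest over the whole study, and dXist EpiSC came next (0.507 ± 0.0836 CPM, SD, n = 2), overlapping with dXist XEN (0.188 ± 0.271, n = 3), which in turn overlapped with WT EpiSC (0.136 ± 0.0696, n = 2). WT XEN was lowest (0.0337 ± 0.0477, n = 2).

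Rnf17 (ENSMUSG00000000365, chr14:56402581-56525032, plus strand), a tudor-domain protein of male germ cells, was at 2.01 and 3.51 CPM in treated dXist XEN, against 0, 0.0390 and 0.428 CPM in dXist XEN. Its log2 fold change was 4.10 (SE 1.21, edgeR adjusted p = 0.0918, from 0.00287 to 0.236 across 11 alternatives). Leaving out the third dXist XEN library gave 6.87 (adjusted p = 0.0443), and leaving out the second treated one 3.60 (adjusted p = 0.108). Mov10l1 (ENSMUSG00000015365, chr15:88982909-89055152, plus strand) was at 0.280 and 1.40 CPM in treated dXist XEN, against 0, 0 and 0.107 CPM in dXist XEN. With only 3 counts in the untreated libraries, the ratio of summed scaled counts was 27.4 (exact 95% counting interval 8.83 to 138), and edgeR gave an adjusted p of 0.0963 (0.0232 to 0.263 across 10 alternatives). The second treated library held 42 of the 47 treated counts, and without it the log2 fold change was 2.74, against 4.38 with it (edgeR adjusted p = 0.263). Both genes kept the gap between treated and untreated libraries that Dazl and Tex19.1 showed.

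The tudor-domain helicase Tdrd9 (ENSMUSG00000054003, chr12:111971559-112068854, plus strand) had 7 and 7 counts in treated dXist XEN and 0 counts in the 3 dXist XEN libraries. With a floor of 3 counts over the untreated group it was 8.17-fold higher, which leaves out counting error in the treated libraries. Its edgeR adjusted p was 0.104 (0.0731 to 0.233 across 7 alternatives). Tdrd1 (ENSMUSG00000025081, chr19:56826209-56870012, plus strand), a PIWI-binding tudor protein, had 6 and 3 counts in treated dXist XEN and 0, 0 and 2 counts in dXist XEN, a ratio of 7.88 (counting interval 1.63 to 74.96), and was too low to be tested.

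The other 4 genes showed no gap. Piwil2 (ENSMUSG00000033644, chr14:70372477-70429383, minus strand) was at 0.895 and 4.98 CPM in treated dXist XEN, against 2.73, 5.31 and 1.28 CPM in dXist XEN, so its treated libraries were the lowest of all 5 and the second highest. Its log2 fold change was -0.06 (SE 0.87, edgeR adjusted p = 0.970). Ddx4 (ENSMUSG00000021758, chr13:112598333-112652475, minus strand) was at 0.336 and 1.40 CPM in treated dXist XEN, against 0.266, 1.25 and 0 CPM in dXist XEN (log2 fold change 0.81, SE 1.51, edgeR adjusted p = 0.754). Asz1 (ENSMUSG00000010796, chr6:18050964-18109061, minus strand) was at 0.448 and 1.30 CPM in treated dXist XEN, against 0, 0 and 1.67 CPM in dXist XEN (log2 fold change 0.64, SE 1.69, edgeR adjusted p = 0.828). All 47 counts of Asz1 in untreated dXist XEN came from the third library, and without it the log2 fold change was 7.30 (edgeR adjusted p = 0.0634, the lowest of 11 alternatives, which reached 0.986). Mael (ENSMUSG00000040629, chr1:166201201-166238747, minus strand) had 0 and 3 counts in treated dXist XEN and 0 in dXist XEN.

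Aza in WT XEN cells was compared over 2 treated and 2 untreated libraries. All 8 tested genes had a positive log2 fold change (median 4.58, against -0.04 over all tested genes), and 7 of the 10 lay higher in both treated libraries than in both untreated ones, where 21.1% of all genes with a count did (25.8% of tested genes). Here too the filter favours positive values among genes with few untreated counts. The signs, the median and the counts of higher genes among those tested are thus only descriptions. By edgeR 0 of the 8 were called, against 0.549% of tested genes called higher and 0.0326% lower. With p under 0.05 before adjustment, 5 of the 8 were higher, against 8.67% of tested genes, and 0 were lower, against 3.72%. Tdrd1 was the 1 gene lower in both treated libraries, where 24.9% of genes with a count were (35.2% of tested genes). DESeq2 called 3 of the 7 it tested (Dazl, Tex19.1 and Rnf17), against 3.2% of its genes. With library type as a term in a fit of all 13 libraries, each of the 8 had an adjusted p of 1.

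Dazl was at 1.98 and 2.10 CPM in treated WT XEN, against 0.135 and 0 CPM in WT XEN (12 and 20 counts against 4 and 0). Its log2 fold change was 4.95 (SE 1.39, edgeR adjusted p = 0.210, from 0.00406 to 1 across 11 alternatives). Tex19.1 was at 3.63 and 3.67 CPM in treated WT XEN, against 0.0674 and 0 CPM in WT XEN. The untreated pair held 2 counts in all, and the ratio of summed scaled counts was 108 (counting interval 28.5 to 911, edgeR adjusted p = 0.196, from 0.000111 to 1 across 11 alternatives). Both treated libraries gave nearly the same level of each gene.

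Rnf17 was at 0.989 and 1.47 CPM in treated WT XEN, against 0.0337 and 0.0342 CPM in WT XEN, a ratio of 37.8 (counting interval 9.18 to 334, edgeR adjusted p = 0.247). Mov10l1 had 4 and 4 counts in treated WT XEN and 1 and 2 in WT XEN, a ratio of 10.1 (2.42 to 59.0, edgeR adjusted p = 0.417). Asz1 had 4 and 6 counts in treated WT XEN and 0 and 2 in WT XEN, a ratio of 18.9 (4.03 to 177, edgeR adjusted p = 0.515). These 3 genes had few counts in the untreated pair, and the intervals cover counting error only.

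Piwil2 was at 2.80 and 4.83 CPM in treated WT XEN, against 0.775 and 0.376 CPM in WT XEN (log2 fold change 2.87, SE 1.04, edgeR adjusted p = 0.310). Ddx4 had 7 and 1 counts in treated WT XEN and 0 in both WT XEN libraries (edgeR adjusted p = 0.351). It was 10.1-fold higher at a floor of 3 counts over the untreated group, again without counting error in the treated libraries. Tdrd9 had 3 and 0 counts in treated WT XEN and 1 and 1 in WT XEN, so its groups overlapped. Mael had 0 and 2 counts in treated WT XEN and 0 in WT XEN. Tdrd1 had 0 counts in treated WT XEN, where 3 counts over the group would be above its level in WT XEN (3 and 1 counts), and no fold is given.

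**Figure D3:**
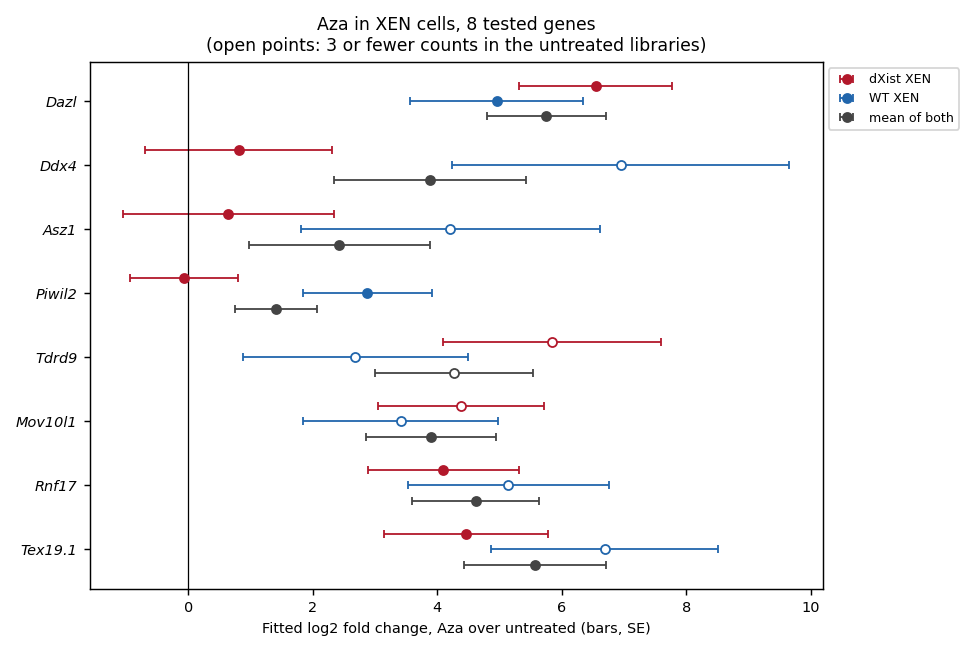
Fitted log2 fold change of Aza-treated over untreated XEN cells (x axis, bars are SE) for the 8 tested genes (y axis), in dXist cells (red), WT cells (blue) and as the mean of both (grey). Open points have 3 or fewer counts in the untreated libraries, where a fitted value is no bound. In dXist cells Dazl has the highest value, 6.54, and Piwil2 lies at -0.06.

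Set against each other, all 4 treated XEN libraries lay above all 5 untreated ones for Dazl, Tex19.1, Rnf17 and Mov10l1, that is 4 of 10 genes, where 3.76% of all genes with a count did so (6.2% of tested genes). For 0 of the 10 did they all lie below, against 3.92% of genes with a count (7.24% of tested genes). The mean of both Aza contrasts was added after these values had been seen. In it Dazl (log2 fold change 5.75, SE 0.95, edgeR adjusted p = 0.0228), Tex19.1 (5.58, SE 1.14, adjusted p = 0.0350) and Rnf17 (4.62, SE 1.02, adjusted p = 0.0408) rose, 3 of the 8 tested, against 2.92% of tested genes called higher. Mov10l1 (3.90, SE 1.04) had an adjusted p of 0.0593. DESeq2 called those 4 and Ddx4, 5 of the 7 it tested, against 10.1% of its genes called higher. The filter bears on the edgeR counts here as in each comparison alone, so they are only descriptions. None of the 3 was called by edgeR once library type was a term, once either treated WT library was left out or both were summed to 1 library, or without the first WT XEN or the second dXist XEN library, and only Dazl was without the second WT XEN or the first dXist XEN library (highest adjusted p 0.122 for Dazl, 0.141 for Tex19.1 and 0.182 for Rnf17 across 16 alternatives). Without the second treated dXist library all 3 kept a positive log2 fold change, but that fit held a single treated dXist library, so its calls are not given.

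Whether Aza acted differently in dXist and WT XEN was tested as an interaction. By edgeR 0 of the 8 genes were called, against 0.00544% of tested genes called higher and 0.239% lower, 0 had an unadjusted p under 0.05, and DESeq2 called 0 of the 6 it tested. Adjusted p-values ran from 0.620 for Piwil2 (-2.94, SE 1.35) to 0.911 for Mov10l1 (0.96, SE 2.04). With SEs of 1.35 to 3.10 on the log2 scale, differences of several fold between the genotypes were not detectable.

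The deletion itself was compared in untreated cells. Piwil2 was at 2.73, 5.31 and 1.28 CPM in dXist XEN, against 0.775 and 0.376 CPM in WT XEN, and was the only 1 of the 10 genes whose dXist libraries all lay above WT, where 10.5% of genes with a count did (13.9% of tested genes). Tdrd9, with 0 counts in dXist XEN and 1 in each WT XEN library, was the only 1 below, where 10.9% did (14.6% of tested genes), and both groups were under the floor. The Piwil2 log2 fold change was 2.40 (SE 0.97, edgeR adjusted p = 0.431). Ddx4 had 8, 32 and 0 counts in dXist XEN and 0 in both WT XEN libraries, and Asz1 had 0, 0 and 47 counts in dXist XEN and 0 and 2 in WT XEN, so in each of these 2 genes the dXist libraries were split. By edgeR 0 of 8 genes were called, against 0% of tested genes called higher and 0.0217% lower. With p under 0.05 before adjustment, 2 were higher (Ddx4 and Piwil2), against 4.72%, 0 were lower, against 6.01%, and DESeq2 called 0 of 7.

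In EpiSC only Piwil2 and Tex19.1 had enough counts to be tested. Tex19.1 was at 0.448 and 0.566 CPM in dXist EpiSC, against 0.0867 and 0.185 CPM in WT EpiSC (log2 fold change 1.92, SE 0.87, edgeR adjusted p = 0.547). Piwil2 was at 0.672 and 0.479 CPM in dXist EpiSC, against 0.173 and 0.232 CPM in WT EpiSC (1.52, SE 0.75, edgeR adjusted p = 0.574). Neither gene was called, where 0% of tested genes were, and DESeq2 called 0 of 2, with 113 higher and 381 lower calls among its 17346 genes. At an unadjusted p under 0.05, 0 of the 2 were higher or lower, against 3.85% of tested genes higher and 6.32% lower. Without a test, 4 of the 10 genes lay above WT in both dXist libraries (Piwil2, Tex19.1, Ddx4 and Tdrd1) and 2 below (Rnf17 and Tdrd9), where 16.4% of genes with a count lay above and 16.4% below (20.6% and 20.2% of tested genes). Rnf17 had 0 and 1 counts in dXist EpiSC and 10 and 6 in WT EpiSC, a ratio of 0.0598 (counting interval 0.00143 to 0.385), and was not tested. Dazl, Mael, Asz1, Mov10l1, Tdrd1 and Tdrd9 had at most 4 counts in any EpiSC library. Between EpiSC and XEN cells, both WT and untreated, edgeR called 0 of the 3 genes tested (log2 fold changes of -1.45 for Piwil2, 2.97 for Rnf17 and 1.90 for Tex19.1, adjusted p = 0.231, 0.232 and 0.448), where 16.8% of tested genes were called higher and 14.1% lower. Of these 3, 0 had an unadjusted p under 0.05, and DESeq2 called 0 of 5. In EpiSC 3 of the 10 genes lay above XEN in both libraries (Rnf17, Tex19.1 and Tdrd9) and 2 below (Piwil2 and Tdrd1), where 27.9% of genes with a count lay above and 23.2% below (34.7% and 31.4% of tested genes).

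Other genes of the pathway were read from a list of 26, of which 25 were in the table and 21 were tested. By edgeR 0 of the 21 were called in either Aza comparison. In treated against untreated dXist XEN, an unadjusted p under 0.05 was found for 7 higher and 2 lower genes (median 1.22, against -0.02 over all tested genes), where 14.4% of tested genes were higher and 12.4% lower. In WT XEN it was found for 7 higher and 0 lower genes (median 1.59, against -0.04), where 8.67% were higher and 3.72% lower. DESeq2 called Tex15, Tdrd5, Mybl1 and Exd1 higher in dXist XEN (4 of 21, against 8.24% of its genes), and Morc1 and Tdrd5 in WT XEN (2 of 19, against 3.2%). In the mean of both contrasts edgeR called 3 higher and 0 lower (Tex15, Tdrd5 and Stk31), against 2.92% of tested genes higher and 1.04% lower. Tex15, a nuclear partner of PIWI-guided methylation, was at 408 and 96.3 CPM in treated dXist XEN, against 15.5, 22.1 and 38.0 CPM in dXist XEN (log2 fold change 3.32, edgeR adjusted p = 0.0608), and at 89.7 and 60.0 CPM in treated WT XEN, against 29.2 and 26.2 CPM in WT XEN. Tex15 was well expressed before treatment, and its first treated dXist library was the higher, as it was for Tdrd1 and Tdrd9 and not for the other 8 of the 10 genes.

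Tdrd5, a tudor protein of germ granules, averaged 19.6 ± 0.702 CPM in treated dXist XEN and 4.68 ± 2.47 CPM in dXist XEN (SD, n = 2 and 3; log2 fold change 2.07, edgeR adjusted p = 0.0956). Mybl1, the transcription factor of the pachytene piRNA programme, was at 198 and 67.1 CPM in treated dXist XEN, against 34.6, 48.3 and 9.16 CPM in dXist XEN (log2 fold change 2.12, not called by edgeR). Stk31 was at 0.224 and 0.701 CPM in treated dXist XEN, the second library again the higher, against 0, 0 and 0.0356 CPM in dXist XEN (25 counts against 1, a ratio of 43.8, counting interval 7.17 to 1798), and Gtsf1l had 31 and 4 (3.66, edgeR adjusted p = 0.118). Exd1, a partner of piRNA biogenesis, averaged 2.44 ± 0.104 CPM in treated dXist XEN and 0.632 ± 0.0700 CPM in dXist XEN (SD, n = 2 and 3; edgeR adjusted p = 0.132).

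The broadly expressed list members Snd1 and Wdr77 had negative values, Snd1 with a log2 fold change of -1.21 (edgeR adjusted p = 0.123) and Wdr77 with -0.93 (adjusted p = 0.174) in dXist XEN. The nearest relatives of Piwil2 stayed near 0: Piwil1 had 1 count in treated dXist XEN, 0 in dXist XEN, 2 in treated WT XEN and 0 in WT XEN, and Piwil4 had 4, 5, 0 and 1 counts in the same groups. Mov10, the widely expressed relative of Mov10l1, was at 25.6 and 99.7 CPM in treated dXist XEN, against 93.5, 80.9 and 72.9 CPM in dXist XEN (-0.39, edgeR adjusted p = 0.663).

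Of 20 other germ cell RNA genes, 19 were in the table and 12 were tested, and edgeR called 0 in either Aza comparison. In dXist XEN an unadjusted p under 0.05 was found for 2 higher and 0 lower genes (median -0.06), against 14.4% of tested genes higher and 12.4% lower, and DESeq2 called Ybx2, 1 of 13, against 8.24%. Those shares are near those of all genes. In WT XEN 1 was higher and 0 lower (median 0.69), against 8.67% and 3.72%, and DESeq2 called 0 of 12. Tex19.2, the paralogue of Tex19.1, had 30 counts in treated dXist XEN, all in the second library, and 1 in dXist XEN, and was at 0.660 and 0.840 CPM in treated WT XEN, against 0.0337 and 0.137 CPM in WT XEN. The first treated dXist library held 26 counts of Tex19.1 and 0 of Tex19.2. Ybx2, which stores messenger RNA in germ cells, averaged 1.09 ± 0.438 CPM in treated dXist XEN and 0.166 ± 0.196 CPM in dXist XEN (SD, n = 2 and 3), and was at 1.48 and 1.57 CPM in treated WT XEN, against 15.9 and 1.71 CPM in WT XEN.

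Rbm44 was at 0.504 and 0.301 CPM in treated dXist XEN, against 0, 0 and 0.143 CPM in dXist XEN. Tex101, a germ cell surface protein, overlapped between those groups (0 and 1.54 CPM treated, 0 to 0.285 CPM untreated). Lin28a, which blocks let-7 maturation and is also made in endoderm, averaged 144 ± 1.34 CPM in treated dXist XEN and 269.7 ± 184 CPM in dXist XEN (SD, n = 2 and 3), and the meiotic RNA helicase Ythdc2 averaged 39.2 ± 24.0 CPM in treated dXist XEN and 24.0 ± 8.75 CPM in dXist XEN.

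Genes that methylate DNA or repress germ cell promoters were all expressed, and edgeR called 0 of 14 in either Aza comparison (DESeq2 called Atf7ip in dXist XEN and 0 in WT XEN). Counting unadjusted p under 0.05, 1 gene was higher in dXist XEN and 0 lower, against 14.4% and 12.4% of tested genes. In WT XEN 0 were higher and 3 lower, against 8.67% and 3.72%. Dnmt1, the enzyme that Aza traps, was at 392 and 161 CPM in treated dXist XEN, against 118, 169 and 206 CPM in dXist XEN (0.75, edgeR adjusted p = 0.263), and at 255 and 251 CPM in treated WT XEN, against 242 and 305 CPM in WT XEN. Atf7ip, a partner of the histone methyltransferase Setdb1, was at 105 and 75.4 CPM in treated dXist XEN, against 24.6, 24.9 and 48.7 CPM in dXist XEN (1.47, edgeR adjusted p = 0.0763), and at 56.1 and 52.2 CPM in treated WT XEN, against 81.2 and 65.6 CPM in WT XEN (-0.28, edgeR adjusted p = 0.834). E2f6, which represses germ cell genes in somatic cells, was at 54.2 and 46.7 CPM in treated dXist XEN, against 75.6, 71.1 and 69.7 CPM in dXist XEN, and at 30.5 and 31.8 CPM in treated WT XEN, against 62.9 and 62.1 CPM in WT XEN. Both treated groups lay below their untreated group in every library, with edgeR adjusted p of 0.248 and 0.292. In WT XEN this was not particular to E2f6: 9 of the 14 genes lay below without overlap and 0 above, where 35.2% and 25.8% of tested genes did. In dXist XEN 1 of the 14 lay below and 1 above, where 21.8% and 20.3% did. Uhrf1, L3mbtl2 and Mga had log2 fold changes of -0.79, -0.81 and 0.54 in dXist XEN (edgeR adjusted p = 0.306, 0.311 and 0.334).

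**Figure D4:**
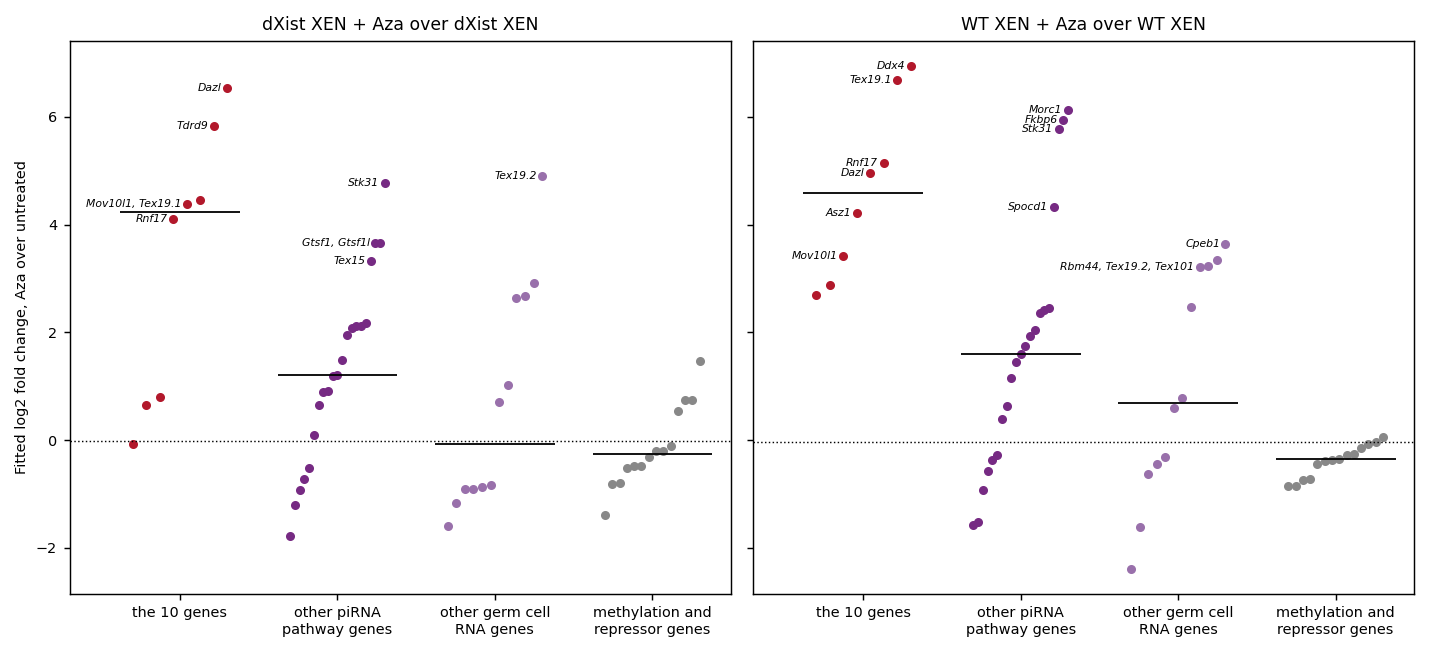
Fitted log2 fold change of Aza-treated over untreated cells (y axis) in dXist XEN (left) and WT XEN (right) for the tested members of 4 gene lists (x axis). Points are genes, ordered by value within a list, solid lines are list medians (4.24 and 4.58 for the 10 genes, 1.22 and 1.59 for the other piRNA genes) and the dotted line is the median of all tested genes. Points beyond 3 are named, and a label with several names starts at the lowest of its points.

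Cell type markers were read beside these values. In bulk libraries a few cells with much of an RNA and many cells with little of it cannot be told apart. The 10 XEN markers summed to 16079 to 41227 CPM in treated dXist XEN, 44653 to 60105 in dXist XEN, 34572 to 37051 in treated WT XEN and 40715 to 65611 in WT XEN, and to 148 to 181 CPM in dXist EpiSC and 264 to 287 CPM in WT EpiSC. Lama1 and Col4a1 carried most of that sum. Of the 10, 2 had a positive log2 fold change with Aza in dXist XEN (median -0.61) and 0 in WT XEN (median -0.53). Without overlap, 1 lay above and 3 below in dXist XEN, where 20.3% and 21.8% of tested genes did. In WT XEN 0 lay above and 7 below, where 25.8% and 35.2% did. Cubn, an endocytic receptor of visceral endoderm, went against most of the list in dXist XEN. It was at 305 and 326 CPM in treated dXist XEN, against 42.1, 41.8 and 73.1 CPM in dXist XEN (log2 fold change 2.59, SE 0.36, edgeR adjusted p = 0.0498). Cubn was the 1 of 10 XEN markers called, where 0.0707% of tested genes were called higher. In WT XEN it was at 122 and 115 CPM with Aza, against 163 and 112 CPM without. The endoderm factor Gata4 was at 167 and 773 CPM in treated dXist XEN, against 2083, 2209 and 1262 CPM in dXist XEN (-1.97, edgeR adjusted p = 0.0963), and DESeq2 called it lower. Of 9 markers of germ cell founders, 5 were tested and edgeR called 0 in either Aza comparison (1 higher in dXist XEN and 0 otherwise at an unadjusted p under 0.05, DESeq2 0 of 5 in each). They summed to 820 to 1270 CPM in treated dXist XEN, 1481 to 2084 in dXist XEN, 1086 to 1090 in treated WT XEN and 1492 to 1833 in WT XEN, nearly all of it from Kit, Sall4 and Sox17, which XEN cells express. Other founder markers were low: Dppa3 had 6, 0, 0 and 0 counts in those 4 groups, Prdm14 7, 19, 0 and 0, and Tfap2c 6, 0, 2 and 0. Nanos3 was at or under 0.165 CPM in every XEN library. Prdm1, which specifies germ cell founders and is also made in other cells, was the 1 gene higher before adjustment, at 0.615 and 0.468 CPM in treated dXist XEN, against 0.133, 0.117 and 0 CPM in dXist XEN (log2 fold change 2.63, SE 1.12, edgeR adjusted p = 0.169), and at 0.165 and 0.315 CPM in treated WT XEN, against 0.371 and 0.171 CPM in WT XEN. Dnd1 was at 0.727 and 2.47 CPM in treated dXist XEN, against 3.86, 3.63 and 1.46 CPM in dXist XEN.

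Trophoblast markers (8 in the table) summed to 3.87 to 10.7 CPM in treated dXist XEN, against 0.641 to 2.63 in dXist XEN, and to 7.42 to 9.24 in treated WT XEN, against 1.69 to 5.33 in WT XEN. Gcm1, Hand1 and Tfap2c were at 0 in both untreated XEN groups. Plac1 and Eomes carried most of the treated sums. Without overlap, 4 of the 8 lay above and 1 below in dXist XEN, where 16.2% and 14.5% of genes with a count did. In WT XEN 3 lay above and 0 below, where 21.1% and 24.9% did. Of the 5 tested, edgeR called 0 in either comparison or their mean. DESeq2 called Plac1 higher in dXist XEN (1 of 4, against 8.24% of its genes) and in the mean, and 0 in WT XEN. Fibroblast markers (10) summed to 6.81 to 7.72 CPM in treated dXist XEN, against 2.34 to 3.81 in dXist XEN, and to 12.9 to 13.7 in treated WT XEN, against 17.7 to 18.4 in WT XEN, in WT cells mostly from Pdgfrb, with Thy1, Twist1 and Prrx1 at 0 in dXist XEN. Col1a2, a collagen gene on that list, was at 0.727 and 4.44 CPM in treated dXist XEN, against 0.366, 0.0780 and 0.356 CPM in dXist XEN, and at 1.65 and 1.26 CPM in treated WT XEN, against 0.202 and 0.137 CPM in WT XEN, so all 4 treated libraries lay above all 5 untreated ones. Other markers of that list went the other way, such as Col3a1, with 0 counts in all 4 treated libraries and 0.765, 0.273 and 0.321 CPM in dXist XEN. Of the 10, 1 lay above and 2 below without overlap in dXist XEN, where 16.2% and 14.5% of genes with a count did. In WT XEN 1 lay above and 3 below, where 21.1% and 24.9% did. Of the 4 tested fibroblast markers edgeR called 0 in either comparison and Col1a2 in the mean of both (log2 fold change 3.23, SE 0.75, adjusted p = 0.0455), and DESeq2 called Col1a2 higher in dXist XEN and in the mean. EpiSC markers (10) summed to 73.2 to 92.9 CPM in treated dXist XEN, against 47.8 to 177 in dXist XEN, and to 106 in both treated WT libraries, against 171 to 231 in WT XEN, mostly from Dnmt3b. Pou5f1, the pluripotency factor on that list, was at 0.615 and 10.2 CPM in treated dXist XEN, against 0.632, 0 and 0.392 CPM in dXist XEN, and at 3.30 and 5.56 CPM in treated WT XEN, against 0.708 and 0.820 CPM in WT XEN. In dXist XEN the groups overlapped and in WT XEN they did not. Of the 4 tested EpiSC markers edgeR called 0 in either comparison (Pou5f1 adjusted p = 0.110 and 0.492) or in their mean (0.0744), and DESeq2 called Pou5f1 higher in dXist XEN and in the mean. Markers of naive and 2-cell-like cells (10) summed to 327 to 491 CPM in treated dXist XEN, against 529 to 872 in dXist XEN, and to 353 to 373 in treated WT XEN, against 700.1 to 812 in WT XEN. Nearly all of it came from Klf4, Tbx3 and Tfcp2l1, which XEN cells express. Zscan4d was at 1.01 and 0.0334 CPM in treated dXist XEN and 0 in dXist XEN. Of the 6 tested, edgeR called 0 in either comparison or their mean. DESeq2 called Zscan4d higher in dXist XEN (1 of 6, against 8.24% of its genes), 0 in WT XEN and Klf4 lower in the mean. The part of other cell types in the higher levels of the 10 genes was not tested.

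Across the 13 libraries Dazl (Pearson r 0.974), Mov10l1 (0.961), Rnf17 (0.95) and Tex19.1 (0.946) followed the mean standardised profile of the 10 genes most closely, on log2(CPM + 0.5), and Mael (0.552) and Tdrd1 (0.30) least. Each gene is part of that mean, and the libraries share their treatment, type and depth, so these are descriptions. Among 16908 other genes with a mean of at least 1 CPM in some group, the 8 most like this profile were Gm6268 (0.984), Hormad1 (0.981), Fmr1nb (0.977), Pramef12 (0.975), Stra8 (0.973), Taf7l (0.968), AI481877 (0.966) and Dppa4 (0.964). With 0.1 in place of 0.5 added, 4 of these 8 were again among the 8 highest. Hormad1 belongs to the meiotic chromosome axis, Stra8 is needed for entry into meiosis, Taf7l is a testis form of a TFIID subunit, and Dppa4 is a DNA-binding protein of pluripotent cells.

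Stra8 was at 0.727 and 3.04 CPM in treated dXist XEN and at 0.660 and 0.945 CPM in treated WT XEN, with 0 counts in all 9 untreated libraries. Hormad1 was at 0.727 and 1.57 CPM in treated dXist XEN and at 0.495 and 0.630 CPM in treated WT XEN, with 0.0356 CPM in 1 dXist XEN library and 0 in the other 8 untreated ones. Taf7l averaged 21.8 CPM in treated dXist XEN and 0.637 CPM in dXist XEN, and 6.10 CPM in treated WT XEN and 0.271 CPM in WT XEN. Dppa4 averaged 6.89 CPM in treated dXist XEN and 0.177 CPM in dXist XEN, and 3.80 CPM in treated WT XEN and 0.187 CPM in WT XEN. All of them were near 0 in EpiSC, as the 10 genes were.

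**Figure D5:**
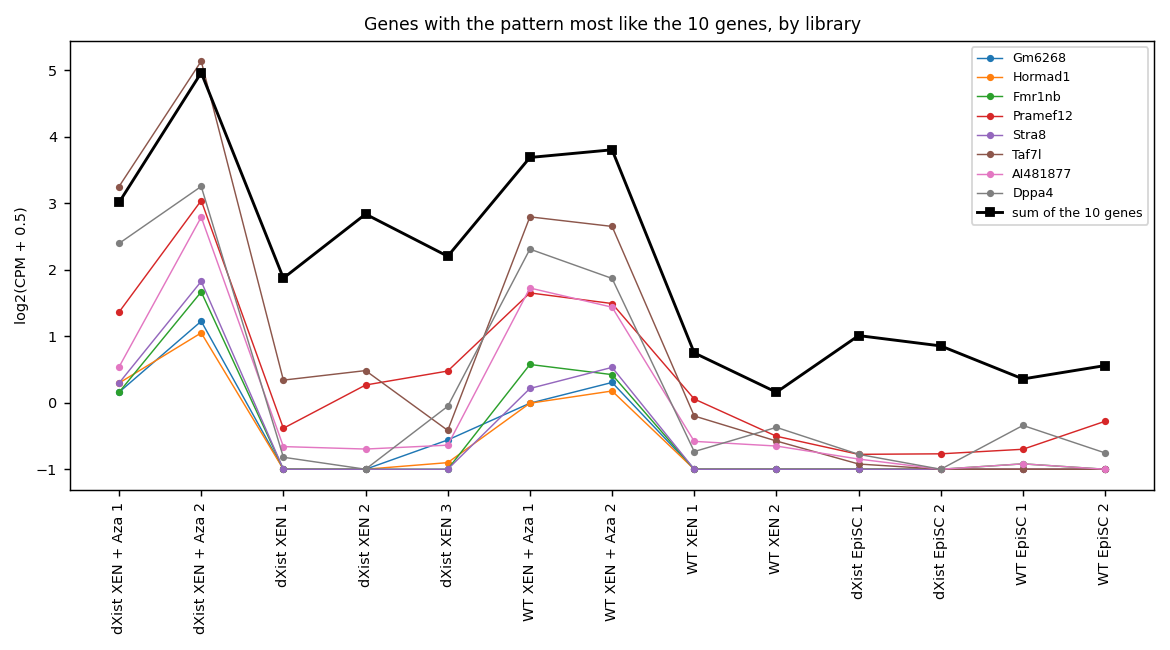
log2(CPM + 0.5) (y axis) in each of 13 libraries (x axis) for the 8 genes with the profile most like that of the 10 genes (coloured lines) and for the sum of the 10 genes (black squares). A value of -1 is 0 counts. All 8 are higher in the 4 treated XEN libraries than in the 5 untreated XEN and 4 EpiSC libraries.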

How the data were processed

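RNA was counted per gene in 13 libraries. The deposited table holds raw read counts per Ensembl gene, and per the submitters' processing notes FastQC, STAR 2.7.9a and featureCounts 2.0.1 were used with GRCm38 (mm10). No source used here states the counting strand or the annotation release, so reads of overlapping genes on opposite strands cannot be separated; none of the 10 genes shares exon bases with another annotated gene. GENCODE vM21 gave a symbol to 38240 identifiers (99.6%), and 137 kept none.

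Counts were tested in R 4.3.3 with edgeR 4.0.16 (TMM, filterByExpr, robust quasi-likelihood F test, Benjamini-Hochberg over all tested genes, called under 0.05): 1 fit of the 9 XEN libraries, 1 of the 4 EpiSC libraries and 1 of the 9 untreated libraries. Each SE was derived from the fold change and its F statistic, as |log2 fold change| / sqrt(F). Levels are CPM on TMM-scaled library sizes. With 1 to 3 counts in the group compared against, a ratio of summed counts has an exact 95% interval. With 0 counts a fold uses a floor of 3 counts over that group and takes the counts of the other group as exact. Intervals cover counting error only, and floors only that of the group with 0 counts. DESeq2 1.42.0, other scalings and filters, a replicate block, library type and left-out libraries were alternatives. The edgeR step was tested on simulated data. Gtsf2, Adad1, Tpbpa and Prl3d1 were not analysed here.

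The members, lists and named genes (up to 8, 6 and 6 of 3 lists by smallest adjusted p in treated dXist XEN, the named paralogues, Dnmt1, and the 8 genes with the most similar profile) were chosen with earlier results of these data known. Promoter sequences are from RefSeq (GRCm38.p6). Same-numbered XEN libraries were not treated as pairs.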

Additional observations from a re-analysis of the deposited data

Results flagged for a closer look

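The few counts of Tdrd1 lay on opposite sides of the untreated libraries in the 2 genotypes treated with Aza: it had 6 and 3 counts in treated dXist XEN and 0, 0 and 2 in dXist XEN, but 0 and 0 counts in treated WT XEN and 3 and 1 in WT XEN. The Aza difference in mean level was 0.262 CPM larger in dXist than in WT XEN. The difference between the genotypes was not tested, since the gene was too low to enter the fit, and a change in WT XEN is not shown at this depth. In the treated WT XEN libraries 3 counts correspond to 0.495 and 0.315 CPM, above the level of Tdrd1 in any library but the first treated dXist XEN one.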

How the results depend on the processing

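Counts of the 10 genes called higher depended on the setting, and the cause was not tested. In dXist XEN with Aza it was 0 as reported, 4 without a filter, 4 with DESeq2 and 2 with library type in a fit of 13 libraries. Over all tested genes 0.0707%, 3.86%, 8.24% and 5.25% were called higher in those settings. Without the third dXist library it was 2, where 279 of 17800 genes were called higher, and without the first or the second it was 0. In WT XEN with Aza it was 0 as reported, 4 without a filter, 3 with DESeq2 and 2 with the groups compared alone. Over all tested genes 0.549%, 1.45% and 3.2% were called higher in the first 3 of these settings, and 643 of 15321 genes in the last. In the mean of both genotypes it was 3 as reported, 5 without a filter, 5 with DESeq2, 5 with replicates 1 and 2 of each group, 0 with library type, 0 with the treated WT libraries summed, and 0 to 5 when single libraries were left out. Over all tested genes the mean contrast called 2.92% higher as reported, 4.59% without a filter and 10.1% with DESeq2. It called 0.484% higher with library type, and 1094 of 17800 genes with replicates 1 and 2 of each group. For the deletion in XEN the count of the 10 genes was 0 as reported and 1 (Ddx4) without a filter, where 303 of 35682 genes were called higher.

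With a replicate block it was 1 in dXist XEN (Rnf17, log2 fold change 6.88) and 5 in the mean of both genotypes. Same-numbered XEN libraries correlated at -0.134 to 0.118 in their deviations from group means. Deviations within groups of 2 or 3 libraries mirror each other, so these low values do not exclude a shared clone or culture. In EpiSC the correlation was 0.799 over 2 pairs, where the number follows library type. There the block raised the calls over all genes to 1960 (841 higher and 1119 lower), from 0 without it, and edgeR then gave an adjusted p of 0.0698 for Tex19.1 and 0.125 for Piwil2, neither called (across 9 alternatives each they reached 1).

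For Aza in dXist XEN, leaving out single libraries gave log2 fold changes of -0.61 to 2.68 for Ddx4, -0.37 to 7.30 for Asz1 and -1.82 to 0.67 for Piwil2, all 3 changing sign, and Piwil2 was 0.058 with library type. For Aza in WT XEN, Tdrd9 ran from -2.97 to 3.83. The cause was not tested. Dazl, Tex19.1, Rnf17 and Mov10l1 kept their direction in every alternative of both Aza comparisons. Over all tested genes, the number called ran from 0 to 4730 for Aza in dXist XEN (14 as reported, 13 higher and 1 lower) and from 1 to 927 in WT XEN. In the treated WT libraries, 3 counts were 0.315 to 0.495 CPM, which limits every low gene there.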
